A study of Mus musculus with 24 samples.

Results

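The genes described here are the nuclear-encoded subunits of the mitochondrial respiratory chain and of ATP synthase, 83 of the 21063 genes measured, chosen by symbol: the Nduf a, b, c, s and v genes, Sdha to Sdhd, and all genes starting with Uqcr, Cox4 to Cox8 or Atp5. They comprise 35 genes of complex I, 4 of complex II, 8 of complex III, 19 of complex IV and 15 of complex V, plus Atp5s and Atp5sl, which match the symbol rule but are not subunits. They were measured by RNA sequencing in 24 libraries of sorted cells from epididymal fat, a visceral depot, of male C57BL/6J mice made obese on a high-fat diet until they weighed 38 to 42 g at 18 to 20 weeks of age.

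The libraries fall into 8 groups of 3. Cold M1, Cold M2 and Cold AP came from mice kept at 18 °C for 7 days and then at 4 °C for 7 days. bFKB1 M1 and bFKB1 M2 came from mice at thermoneutrality given 10 mg/kg of bFKB1, an antibody that mimics the hormone FGF21, with tissue taken after 8 days. Warm M1, Warm M2 and Warm AP came from mice kept at 29 to 30 °C and serve as the comparison for both treatments. M1 and M2 are 2 sorted macrophage populations and AP the adipocyte progenitors. Each Cold and Warm library pools the cells of 5 mice, whose diet started at 6 weeks of age. Neither pooling nor the start of the diet is stated for bFKB1. The labels give no vehicle group, and the bFKB1 libraries came in a table of their own, so the treatment and that table cannot be told apart. Libraries held 14374696 to 34600782 counts.

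The respiratory chain passes electrons from NADH (complex I) and succinate (complex II) through complex III to complex IV, which reduces oxygen, and the proton gradient so built drives ATP synthase, complex V. Most subunits are encoded in the nucleus and, except in complex II, assemble with subunits encoded by mitochondrial DNA. Alternatively activated macrophages are generally described as relying on oxidative phosphorylation more than classically activated ones, and thermogenic fat cells are known for a very high content of respiratory chain.

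The promoters of 4 members are printed here, each 250 bases before to 50 bases after the start site, for members on which the results turn: Atp5e and Atp5k fell most in Cold AP among the members called there with a mean of at least 5 CPM (counts scaled to a library total of 1000000), Ndufa6 differed most between M1 and M2 under the same filter, and Sdha, the catalytic flavoprotein of complex II, differed in neither. Sequences are from RefSeq on mouse build GRCm38.p6, in the direction of transcription, all on the minus strand: chr2:174464052-174464351 for Atp5e, chr5:108434350-108434649 for Atp5k, chr15:82354242-82354541 for Ndufa6 and chr13:74350191-74350490 for Sdha. Capitals mark matches to 2 motifs of respiratory genes, that of nuclear respiratory factor NRF1 (GCGC, any base, then TGCGC, which reads GCGCA, any base, then GCGC on the other strand), and that of the ETS family that includes GABP (CCGGAAG, which reads CTTCCGG on the other strand).
Atp5e: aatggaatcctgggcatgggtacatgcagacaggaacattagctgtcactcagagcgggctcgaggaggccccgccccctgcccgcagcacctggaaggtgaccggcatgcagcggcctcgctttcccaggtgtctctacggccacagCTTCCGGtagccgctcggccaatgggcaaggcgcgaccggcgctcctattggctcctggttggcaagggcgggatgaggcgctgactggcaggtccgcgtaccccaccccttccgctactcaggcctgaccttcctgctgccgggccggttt
Atp5k: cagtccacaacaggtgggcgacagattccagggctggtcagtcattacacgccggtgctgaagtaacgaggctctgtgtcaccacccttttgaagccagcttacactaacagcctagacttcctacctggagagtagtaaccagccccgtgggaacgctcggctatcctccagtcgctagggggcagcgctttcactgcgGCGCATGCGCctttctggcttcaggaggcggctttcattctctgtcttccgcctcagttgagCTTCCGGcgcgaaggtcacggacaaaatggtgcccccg
Ndufa6: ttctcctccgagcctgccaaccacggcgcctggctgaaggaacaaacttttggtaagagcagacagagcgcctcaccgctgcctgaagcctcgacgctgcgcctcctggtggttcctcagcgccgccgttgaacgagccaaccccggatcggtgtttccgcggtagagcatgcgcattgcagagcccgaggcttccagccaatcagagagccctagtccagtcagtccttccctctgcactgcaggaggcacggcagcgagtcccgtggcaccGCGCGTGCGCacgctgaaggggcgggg
Sdha: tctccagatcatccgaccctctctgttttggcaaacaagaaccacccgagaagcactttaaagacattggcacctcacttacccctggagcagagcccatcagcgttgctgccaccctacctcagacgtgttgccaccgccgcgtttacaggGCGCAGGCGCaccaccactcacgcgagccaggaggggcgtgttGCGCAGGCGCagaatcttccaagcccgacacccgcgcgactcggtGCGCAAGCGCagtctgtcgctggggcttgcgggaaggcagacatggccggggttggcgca

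A promoter of that length was found for 69 of the 83 members. The NRF1 motif was present in 17 of them, 24.6%, against 5.19% of the 27025 gene promoters in the reference and 7.44% of the 16608 whose genes are in the count tables. The ETS motif was present in 16, or 23.2%, against 9.93% of all and 13.23% of those in the tables, and AAGATGG, the motif of YY1, on either strand, in 12, or 17.4%, against 7.28% of all and 7.24% of those in the tables. Atp5k carried both an NRF1 and an ETS match, and Sdha 3 NRF1 matches. By complex, an NRF1 match stood in 7 of 31 promoters of complex I, 2 of 3 of complex II, 1 of 5 of complex III, 1 of 14 of complex IV and 6 of 14 of complex V. Such a match is a description of the letters. The members' promoters were also richer in G and C, at a median of 57.3% against 52.7% in all promoters. The part of this in the motif shares was not tested. The median log2 change for Cold against Warm in AP, given further on, was −0.46 both with and without the NRF1 motif. For M1 against M2 in Warm it was 0.23 with the motif and 0.27 without it, and for AP against M1 in Warm 0.19 with the motif and 0.31 without it. For M1 against M2 in Cold it was 0.13 both with and without the motif. In that comparison 2 of 17 members with the motif and 17 of 50 without it were called higher, where 27.8% of all genes were. These differences were not tested.

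The labels were checked against marker genes. The summed level of 8 macrophage genes was 9452 to 20359 CPM in the 18 macrophage libraries and 57.0 to 354.9 CPM in the 6 AP libraries. Itgax, which encodes CD11c, was 728 to 1040.5 CPM in M1 and 34.0 to 187 CPM in M2, and Mrc1, the mannose receptor CD206, was lower in M1 than in M2. Progenitor genes were present in M1: the level of 15 progenitor markers, as a percentage of that in the AP libraries, was 35.9, 17.8 and 12.7 in Cold M1, 6.71, 2.31 and 3.45 in bFKB1 M1, and 2.12, 7.64 and 2.13 in Warm M1, against 1.18 to 3.07 in M2. The summed level of 8 T and NK cell genes was also higher in M1, 136.3 to 214.9 CPM, than in M2, 18.4 to 47.0 CPM.

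Members differed widely in level. Per kb of exon, the 3 with the most counts were the same in M1, M2 and AP: Atp5a1 and Atp5b, the alpha and beta subunits of the catalytic head of ATP synthase, and Cox4i1, a structural subunit of complex IV. Atp5a1 reached 267.9, 214.4 and 147.9 CPM per kb in Warm M1, Warm M2 and Warm AP, and Atp5b 243.9, 187.8 and 146.8 CPM per kb. Of the 83 members, 14 stayed under a mean of 5 CPM in all 3 Warm groups. These include the tissue forms of complex IV, but also Cox7c and Atp5l, which most cells express, so their counts are uncertain. A stretch of 50 bases shared with another gene or pseudogene, which the counting may have split or dropped, was found in 37 members, in Atp5l over 68.5% and in Uqcrb over 43.2% of such stretches. Exons of 28 members overlap those of another gene, and the library kit named in the labels does not mark strand, so reads in those overlaps cannot be assigned.

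**Figure D1:**
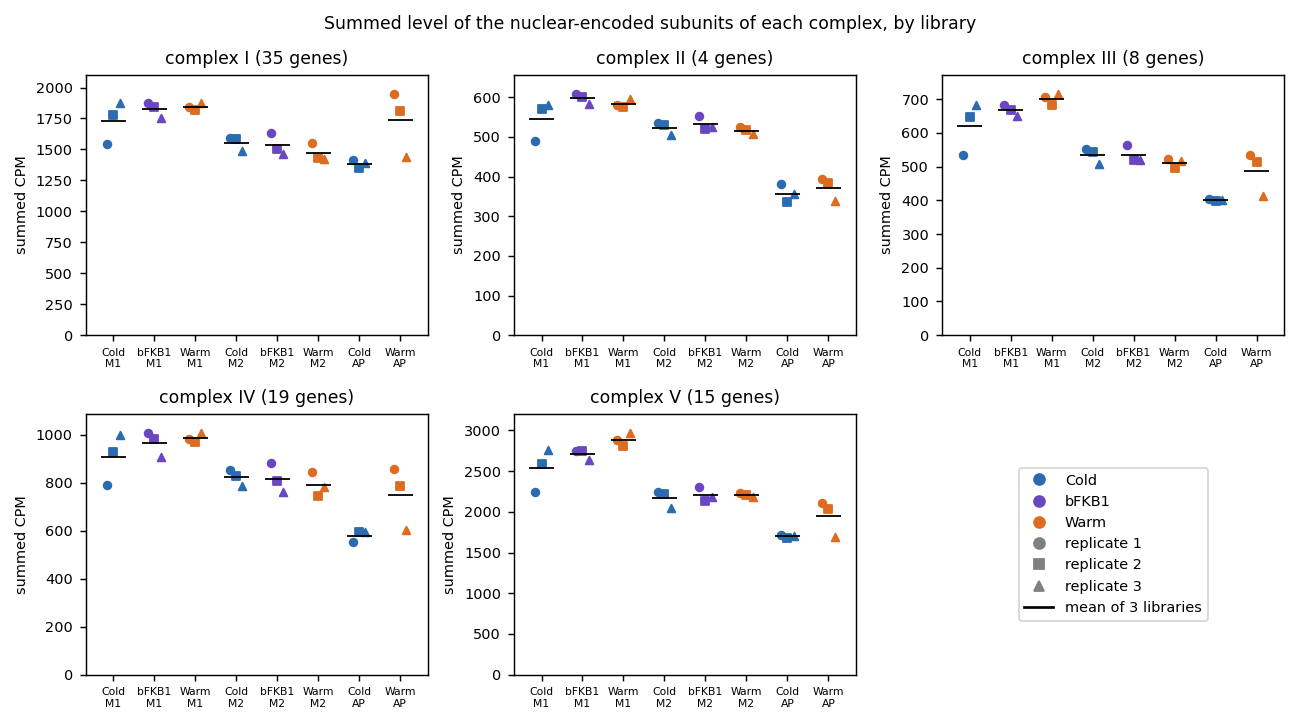
Summed level of the members in CPM for each complex (panels), by group; each point is 1 library and each bar the mean of the 3. In complex I the Cold AP libraries lie between 1351.1 and 1412.8 CPM, and 1 Warm AP library at 1442.4 CPM stands close to them, away from the Warm AP libraries at 1812.0 and 1949.0 CPM.

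In the summed level, the mean of M1 was above that of M2 and the mean of M2 above that of AP in Cold and in Warm mice. All members together reached 5620.5, 6525.7 and 6906.9 CPM in Cold M1, 5781.9, 5719.8 and 5343.4 CPM in Cold M2, and 4473.7, 4364.1 and 4452.1 CPM in Cold AP. The bFKB1 groups held 6937.0, 6856.1 and 6542.8 CPM in M1 and 5959.9, 5498.4 and 5470.2 CPM in M2. The Warm groups held 7014.8, 6866.1 and 7178.0 CPM in M1, 5682.2, 5403.6 and 5424.9 CPM in M2, and 5856.4, 5539.2 and 4494.8 CPM in AP. The ranges of Cold M1 and Cold M2 overlapped, and those of Warm M1 and Warm M2 did not. The ranges of Warm M2 and Warm AP overlapped as well, and the order of their means rests on the third Warm AP library. That library stood with the Cold AP libraries, below every Warm M2 library. The other Warm AP libraries, at 5856.4 and 5539.2 CPM, lay above the Warm M2 mean of 5503.5 CPM. In libraries of sorted cells, fewer cells of one type and less RNA per cell cannot be told apart.

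The first comparison asks what cold exposure did to these genes in progenitors. In AP, 49 of the 80 members tested were lower in Cold than in Warm and none was higher, by edgeR's quasi-likelihood test at an adjusted p under 0.05 over all genes. Of all 12910 genes tested, 16.6% were lower and 18.4% higher. The median log2 change was −0.46 over the members and 0.00 over all genes. The members that fell were 26 of 35 in complex I, 1 of 4 in complex II, 5 of 8 in complex III, 8 of 16 in complex IV and 9 of 15 in complex V. These calls are tied to transcript length, as set out after the single genes.

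The 4 members that fell most at a mean of 5 CPM or more were small subunits. Atp5e, the epsilon subunit of the catalytic head, was at 37.3, 48.7 and 45.3 CPM in Cold AP, against 90.2, 87.5 and 64.8 CPM in Warm AP. Atp5k, which encodes subunit e of the membrane part and takes part in ATP synthase dimers, was at 15.1, 17.9 and 16.5 CPM in Cold AP, against 33.0, 28.8 and 20.2 CPM in Warm AP. The groups do not overlap in either gene, and the third Warm library is the lowest of its group in both. The log2 changes were −0.96 ± 0.15 (SE, adjusted p = 0.00758) for Atp5e and −0.80 ± 0.17 (adjusted p = 0.0143) for Atp5k. Cox7a2, a small subunit of complex IV in its general form, was at 30.1, 36.1 and 34.8 CPM in Cold AP, against 58.9, 53.7 and 42.5 CPM in Warm AP (log2 change −0.69 ± 0.13, adjusted p = 0.0117). Uqcrb, the ubiquinone-binding subunit of complex III, was at 4.53, 4.85 and 5.00 CPM in Cold AP, against 8.94, 8.18 and 5.32 CPM in Warm AP (log2 change −0.71 ± 0.19, adjusted p = 0.0271), with the caution on its shared stretches given above.

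Of 10 catalytic and large subunits chosen by name, Sdhb, Cox5a and Cox4i1 were lower in Cold AP and the other 7 did not pass the test. Cox4i1 had a log2 change of −0.35 (adjusted p = 0.0476), and of 0.14 with the length trend described further on removed. Sdhb, the iron-sulfur subunit of complex II, was at 72.6, 68.0 and 70.4 CPM in Cold AP, against 99.0, 92.7 and 76.0 CPM in Warm AP, a log2 change of −0.42 ± 0.10 (adjusted p = 0.0192). Cox5a, a matrix-side subunit of complex IV, was at 29.3, 30.9 and 28.3 CPM in Cold AP, against 47.8, 43.6 and 33.1 CPM in Warm AP (log2 change −0.57 ± 0.13, adjusted p = 0.0173). In both genes every Cold library lies below every Warm one. With the length trend removed neither passed the test, at −0.04 for Sdhb (adjusted p = 0.601) and −0.02 for Cox5a (adjusted p = 0.808). Sdha was at 231, 192 and 208 CPM in Cold AP, against 201, 200 and 187 CPM in Warm AP, and Atp5a1 at 488, 452 and 467 CPM in Cold AP, against 481, 481 and 428 CPM in Warm AP. In these 2 the groups overlap, with log2 changes of 0.02 (adjusted p = 0.839) and −0.06 (adjusted p = 0.573). Ndufs1, the largest subunit of complex I, with a log2 change of −0.09, Ndufv1, its NADH-binding subunit, with −0.23, and Uqcrfs1, the Rieske iron-sulfur protein of complex III, with −0.21, did not pass the test either.

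Over all genes, the change in Cold AP followed transcript length, and the members are short. Among genes that are not members, the median log2 change was −0.59 for 75 genes whose longest coding transcript is up to 600 bases, −0.50 for 456 genes of over 600 to 1000 bases, −0.29 for 2479 genes of over 1000 to 2000 bases, −0.03 for 5228 genes of over 2000 to 4000 bases and 0.35 for 4471 longer genes. The members' medians in the first 4 classes were −0.56 (17 members), −0.54 (29), −0.32 (25) and −0.15 (7). In the shortest class 54.7% of the other genes were lower in Cold AP, and 11 of 17 members; in the next, 52.4% of the other genes and 22 of 29 members. In M2 the other genes showed no such slope: their class medians lay between −0.08 and 0.02.

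With the length trend taken out of each library, a step chosen after seeing the data, 11 members were called, 7 of them higher and 4 lower, at a median log2 change of −0.03. Only 4 of the 49 were among them. Higher were Ndufb9, Ndufb10, Cox6a1, Cox7a2l, Cox8a, Cox7a1 and Cox8b, with log2 changes of 0.21 to 1.61. Lower were Atp5e (−0.32, adjusted p = 0.0321), Ndufa13 (−0.21), Ndufb2 (−0.67) and Atp5g1 (−1.20). The longest coding transcripts listed for Atp5g1 and Ndufb2, 4715 and 4371 bases, are far longer than those of the other members, and the step rests on that length.

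**Figure D2:**
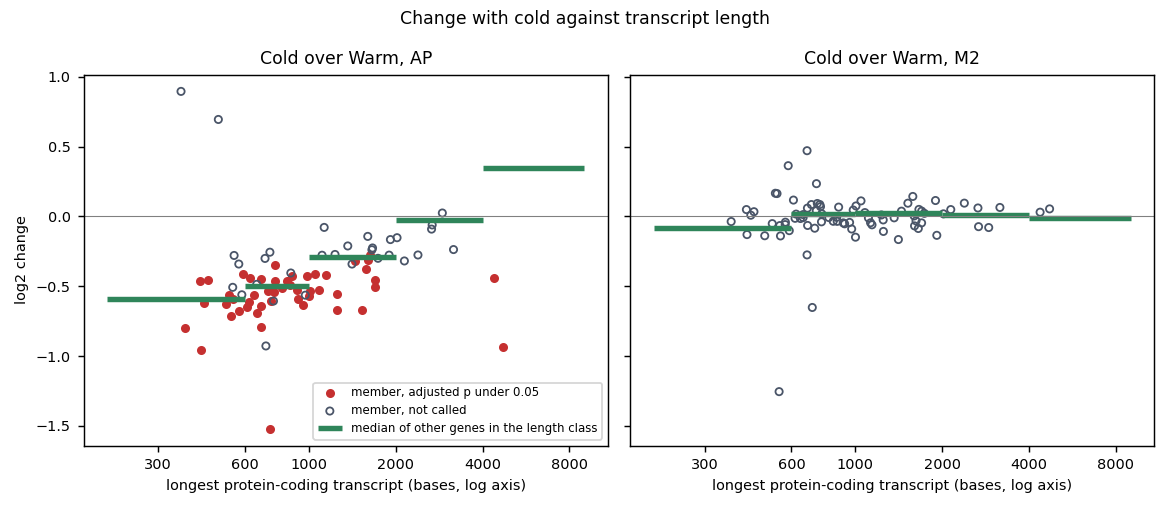
Log2 change of Cold over Warm in AP and in M2 against the length of the longest coding transcript (log axis, bases); points are members, filled where they passed the test, and bars the medians of all other genes by length class. In AP the line runs from −0.59 in the shortest class to 0.35 in the longest, and the members up to 2000 bases lie around it, while in M2 it stays near 0.

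In the share of counts on short genes, too, the third Warm AP library was the closest of its group to the Cold AP libraries. Short genes outside the set (transcripts up to 1000 bases) took 2.80, 2.73 and 2.75% of counts in Cold AP, against 4.12, 3.86 and 3.05% in Warm AP. The sum of macrophage markers was 57.0 to 161.0 CPM in Cold AP, against 354.9, 294.5 and 69.7 CPM in Warm AP. The part of either in the fall of the members was not tested beyond the length step. Without Warm AP library 3, 67 members were lower. The count was 9 without Warm AP library 1, 1 without Warm AP library 2, 18 without Cold AP library 1 and 1 without Cold AP library 3, so it depends on single libraries, while the members' median log2 change stayed between −0.58 and −0.38.

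The tissue forms of complex IV are low in these cells. Cox4i2, the form of Cox4 known from lung and from oxygen sensing, was at 0.342, 0.446 and 0.152 CPM in Cold AP, against 1.24, 0.808 and 0.607 CPM in Warm AP (log2 change −1.52 ± 0.44, adjusted p = 0.0317). With the length step Cox4i2 did not pass, at −1.01 (adjusted p = 0.0981). Cox7a1 and Cox8b, the heart and muscle forms that also mark brown and beige fat, were at 0.652, 0.655 and 0.758 CPM and at 1.74, 1.16 and 1.06 CPM in Cold AP, against 0.585, 0.404 and 0.231 CPM and 0.963, 0.606 and 0.462 CPM in Warm AP. For both, all Cold libraries lie above all Warm ones. Without the length step neither passed the test, with log2 changes of 0.69 (adjusted p = 0.17) and 0.90 (adjusted p = 0.0719); with it both did, at 1.32 (adjusted p = 0.0207) and 1.61 (adjusted p = 0.0116).

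Other lists of mitochondrial and ribosomal genes were counted in the same comparison, where 16.6% of all genes were lower. In the mitochondrial ribosome 45 of 73 genes were lower and none higher, and in the cytosolic ribosome 46 of 73 were lower and none higher. With the length step 20 and 8 were lower. Of 43 assembly factors of the complexes, 15 were lower, among them Cox14 (−0.70) and Cox17 (−0.73), and 2 were higher, Coa5 (0.75) and Pet117 (0.72). Of 13 mobile carriers and exchange proteins 9 were lower, of 13 tricarboxylic acid cycle enzymes 4, and of 9 mitochondrially encoded genes 1, with none higher. Among 16 regulators of mitochondrial biogenesis, Ppargc1a, the coactivator PGC-1alpha, was higher at 10.6 ± 2.08 CPM in Cold AP and 1.76 ± 0.20 CPM in Warm AP (SD, n = 3 each; log2 change 2.50, adjusted p = 0.00202 by edgeR). Ppargc1b (1.26) and Gabpa (0.72) were higher, Perm1 (−1.25) was lower, and Nrf1 (0.07), Tfam (−0.22) and Yy1 (0.14) did not pass the test.

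**Figure D3:**
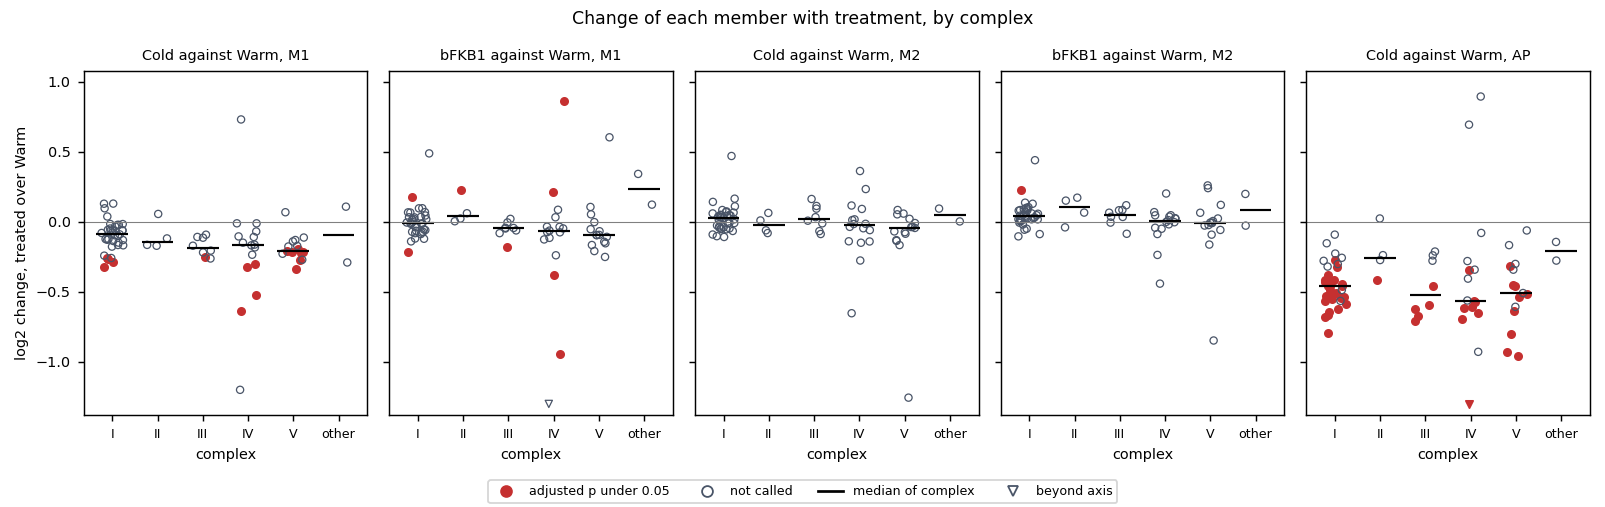
Log2 change of each member for Cold over Warm in M1, M2 and AP and for bFKB1 over Warm in M1 and M2, by complex; filled points passed an adjusted p under 0.05, black bars are medians of a complex and triangles lie beyond the axis. AP holds 49 filled points, all below 0, where 16.6% of all genes were lower. M1 holds 16 under cold, all below 0, where 21.5% of all genes were lower, and M2 none under cold.

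In M1, 16 of 80 members were lower in Cold than in Warm and none was higher, against 21.5% lower and 22.4% higher among the 12981 genes tested. The share of members that were lower was thus near that of all genes. The members' median log2 change was −0.14 and that of all genes −0.03. The members that fell were 7 of 15 in complex V, namely Atp5a1, Atp5b, Atp5d, Atp5e, Atp5f1, Atp5j and Atp5o, with 4 of complex I, 1 of complex III and 4 of complex IV. Atp5e was at 64.6, 84.4 and 89.9 CPM in Cold M1, against 99.99, 93.8 and 103.3 CPM in Warm M1, a log2 change of −0.34 ± 0.11 (adjusted p = 0.0255). Ndufs8, an iron-sulfur core subunit of complex I, was at 47.2, 60.2 and 63.3 CPM in Cold M1, against 71.5, 67.3 and 71.5 CPM in Warm M1 (log2 change −0.32 ± 0.09, adjusted p = 0.0133). In both, the first Cold library is the lowest and no Cold library reaches the Warm ones.

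Cox7b, a small subunit of complex IV, was at 20.5, 26.3 and 28.0 CPM in Cold M1, against 30.4, 30.0 and 32.1 CPM in Warm M1 (log2 change −0.32, adjusted p = 0.0231). Cox5a was at 81.4, 105.7 and 108.9 CPM in Cold M1, against 123.3, 114.1 and 121.5 CPM in Warm M1 (log2 change −0.30, adjusted p = 0.0223). The first Cold M1 library, the lowest in these genes, is also the one with the most progenitor RNA. Cox6b2, the testis form of Cox6b, was at 1.39, 2.32 and 2.31 CPM in Cold M1, against 3.22, 2.74 and 3.25 CPM in Warm M1 (log2 change −0.64, adjusted p = 0.0359). Ndufs1 and Ndufv1, with log2 changes of −0.02 and −0.03, did not pass the test.

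The direction in M1 depends on how progenitor RNA is treated. When libraries were scaled on 1097 genes that progenitors express at low levels, 61 members were called and all were higher, at a median log2 change of 0.34, but the median of all genes then moved to 0.46. Relative to all genes the members stood at −0.12 under that scaling and at −0.11 as first scaled. When the progenitor counts expected from the markers were subtracted, 3 members were called, all higher, and the members stood at −0.03 relative to all genes. The count was 0 without Warm M1 library 3, 1 without Warm M1 library 1, 2 without Cold M1 library 1, 8 without Cold M1 library 2 and 24 without Cold M1 library 3.

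In M2, no member of 80 passed the test for Cold against Warm by edgeR's quasi-likelihood test, where 5.69% of all genes were lower and 4.41% higher. One, Atp5l, had an unadjusted p under 0.05, and DESeq2 also called 0. The median log2 change of the members was −0.01 and that of all genes 0.00. Atp5e was at 62.1, 60.1 and 54.7 CPM in Cold M2, against 67.6, 57.3 and 60.1 CPM in Warm M2, and Atp5a1 at 683, 685 and 639 CPM in Cold M2, against 669, 671 and 676 CPM in Warm M2. Both genes overlap between the groups.

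The cold effect was compared between cell types by an interaction term in edgeR. For AP minus M2, 35 of 81 members had a lower change in AP and none a higher one, against 10.1% lower and 12.2% higher among 13687 genes, at a median difference of −0.45 for the members and −0.01 for all genes. Uqcrb differed by −0.86 ± 0.21 (adjusted p = 0.0128), Atp5e by −0.81 ± 0.19 (adjusted p = 0.01) and Cox5a by −0.54 ± 0.16 (adjusted p = 0.0268). With the length step 4 members were called: Cox6a1 (0.24), Cox8a (0.39) and Cox7a1 (1.39) higher and Atp5g1 (−1.25) lower in AP. The count of 35, which does not use that step, was 22 without Cold AP library 3, and 15, 14 and 58 without Warm AP libraries 1, 2 and 3. It was 20 and 19 without Cold M2 libraries 1 and 2, and 15 and 23 without Warm M2 libraries 2 and 3. All calls in these counts were lower in AP, except 1 of the 15 without Warm AP library 1. For M2 minus M1, 0 of 80 members passed, 7 had an unadjusted p under 0.05 and DESeq2 called 1; of all genes 1.11% were higher and 1.2% lower.

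For bFKB1 the changes were few and went both ways. In M1, 4 of 80 members were higher and 4 lower than in Warm, against 12.2% higher and 9.45% lower among 12734 genes, with medians of −0.04 for the members and −0.02 for all genes. Sdhc, a membrane anchor of complex II, was at 85.5, 79.2 and 73.6 CPM in bFKB1 M1, against 64.8, 70.0 and 70.0 CPM in Warm M1 (log2 change 0.23 ± 0.06, adjusted p = 0.0222). Cox8a, the general form of Cox8, was at 110.3, 115.4 and 99.8 CPM in bFKB1 M1, against 91.2, 93.1 and 98.6 CPM in Warm M1 (log2 change 0.21, adjusted p = 0.0373). In both genes the groups stand apart, for Cox8a by a narrow gap.

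Ndufs7, an iron-sulfur core subunit of complex I, was at 61.5, 63.8 and 54.1 CPM in bFKB1 M1, against 52.8, 52.8 and 53.7 CPM in Warm M1 (log2 change 0.18, adjusted p = 0.0447). Cox7b was at 25.8, 24.6 and 20.2 CPM in bFKB1 M1, against 30.4, 30.0 and 32.1 CPM in Warm M1 (log2 change −0.38 ± 0.09, adjusted p = 0.0163). Ndufs8 (−0.21, adjusted p = 0.0261) and Uqcrfs1 (−0.18, adjusted p = 0.049) were also lower, without overlap between the groups. Among low genes, Cox6b2 was at 1.65, 1.66 and 1.43 CPM in bFKB1 M1, against 3.22, 2.74 and 3.25 CPM in Warm M1 (log2 change −0.95, adjusted p = 0.00949), and Cox6a2, the heart and muscle form of Cox6a, was at 1.05, 1.47 and 1.06 CPM in bFKB1 M1, against 0.793, 0.685 and 0.484 CPM in Warm M1 (log2 change 0.87, adjusted p = 0.0415). With the bFKB1 libraries numbered as in their titles, the count of 8 was 2 without bFKB1 M1 library 1 or 2 or without Warm M1 library 1, 3 without Warm M1 library 3 and 4 without bFKB1 M1 library 3.

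In M2 only Ndufs7 passed the test under bFKB1, against 5.25% of genes higher and 3.01% lower. It was at 62.0, 60.9 and 59.5 CPM in bFKB1 M2, against 53.5, 52.1 and 48.8 CPM in Warm M2, a log2 change of 0.23 ± 0.06 (adjusted p = 0.0361), and did not pass when any 1 of the 6 libraries compared was left out. Cox8a (0.20, adjusted p = 0.0801) and Sdhc (0.17, adjusted p = 0.106) did not pass. The bFKB1 effect in M2 minus M1 passed for 0 of 80 members and for 0% of all genes in either direction by edgeR; 4 members had an unadjusted p under 0.05, and DESeq2 called 0 members.

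The next comparison sets the 2 macrophage populations side by side. In Warm mice 42 of 80 members were higher in M1 than in M2 and 2 were lower, against 22.5% higher and 22.8% lower among all genes, with a median log2 difference of 0.26 for the members and 0.04 for all genes. Higher in M1 were 17 of 35 genes of complex I, 1 of 4 of complex II, 6 of 8 of complex III, 7 of 16 of complex IV and 11 of 15 of complex V, with all 5 subunits of its catalytic head. With the length step 26 were higher and 6 lower. Ndufa6, an accessory subunit of complex I, was at 85.7, 77.9 and 86.0 CPM in Warm M1, against 51.9, 45.0 and 44.3 CPM in Warm M2, a log2 difference of 0.73 ± 0.09 (adjusted p = 8.62e-05). Uqcrfs1 was at 112.7, 100.3 and 110.6 CPM in Warm M1, against 63.9, 62.5 and 64.8 CPM in Warm M2 (0.67 ± 0.10, adjusted p = 0.000288). In both genes the populations lie far apart relative to the spread within each.

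Atp5e was at 99.99, 93.8 and 103.3 CPM in Warm M1, against 67.6, 57.3 and 60.1 CPM in Warm M2 (0.60 ± 0.11, adjusted p = 0.000938). Sdhb was at 150, 152 and 155 CPM in Warm M1, against 111, 109 and 108 CPM in Warm M2 (0.39 ± 0.07, adjusted p = 0.00116). The other subunits of complex II did not pass: Sdha was at 306, 295 and 305 CPM in Warm M1, against 286, 294 and 283 CPM in Warm M2 (−0.02, adjusted p = 0.821). Atp5a1 was at 843, 819 and 856 CPM in Warm M1, against 669, 671 and 676 CPM in Warm M2 (0.23 ± 0.07, adjusted p = 0.018). These differences are modest beside Ndufa6, and Ndufs1 (0.07) and Cox5a (0.19) did not pass.

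Among the tissue forms of complex IV, Cox7a1 and Cox6a2 were lower in M1 and Cox6b2 was higher. Cox7a1 was at 2.05, 1.67 and 2.08 CPM in Warm M1, against 3.27, 3.06 and 2.89 CPM in Warm M2 (log2 difference −0.75 ± 0.19, adjusted p = 0.00628). Cox6a2 was at 0.793, 0.685 and 0.484 CPM in Warm M1, against 2.00, 1.55 and 2.04 CPM in Warm M2 (−1.59 ± 0.29, adjusted p = 0.000888). Its exons overlap those of Itgad, which encodes an integrin of macrophages and was higher in M1, at 4.02 to 6.85 CPM, than in M2, at 0.14 to 0.89 CPM. Cox6b2 was higher in M1, at 3.22, 2.74 and 3.25 CPM in Warm M1, against 1.42, 1.14 and 0.963 CPM in Warm M2 (1.29 ± 0.23, adjusted p = 0.000902).

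**Figure D4:**
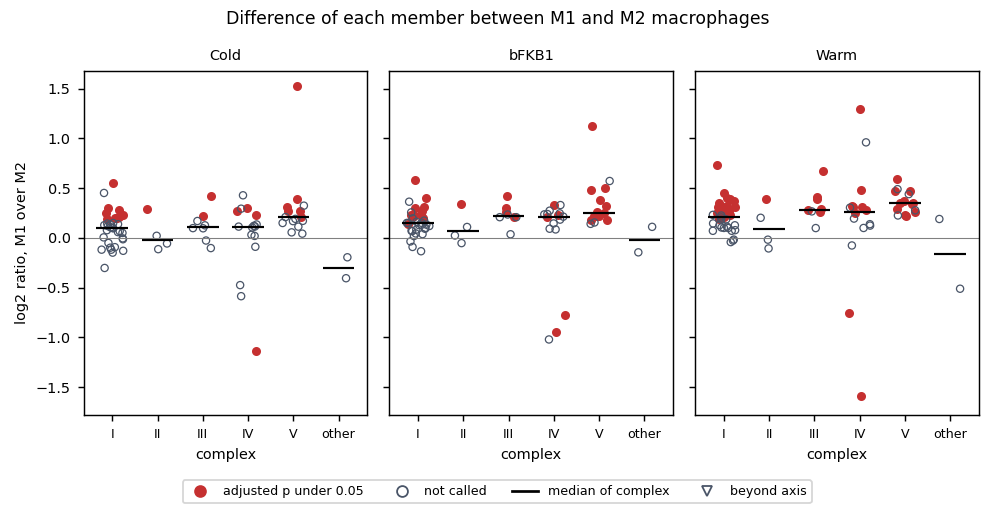
Log2 difference of M1 over M2 for each member in Cold, bFKB1 and Warm, by complex; filled points passed an adjusted p under 0.05 and black bars are medians of a complex. Most filled points lie above 0 in each panel (21 of 22, 32 of 34 and 42 of 44), and the filled points below 0 are Cox7a1 and, except in Cold, Cox6a2.

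In Cold mice 21 of 80 members were higher in M1 than in M2 and 1 was lower, against 27.8% higher and 26.9% lower of all genes, at medians of 0.12 and 0.00. The share of members higher in M1 was thus near that of all genes. With expected progenitor counts subtracted, 40 of 79 members were higher and 2 lower, where 7265 of 12467 genes were called in either direction. With the length step 18 were higher and 8 lower. Ndufa6 was at 59.7, 70.8 and 76.8 CPM in Cold M1, against 48.8, 45.0 and 43.9 CPM in Cold M2 (0.55 ± 0.09, adjusted p = 0.000555). Under bFKB1 32 were higher and 2 lower, against 23% and 24.6% of all genes, at medians of 0.20 and 0.01. With the length step 23 were higher and 4 lower. Ndufa6 was at 74.3, 75.7 and 78.3 CPM in bFKB1 M1, against 49.3, 49.6 and 46.9 CPM in bFKB1 M2 (0.58 ± 0.07, adjusted p = 7.31e-05). Cox7a1 was lower in M1 in both, by −1.13 in Cold (adjusted p = 0.00047) and −0.95 under bFKB1 (adjusted p = 0.000733). Cox6a2 differed by −0.77 under bFKB1 (adjusted p = 0.0227) and by −0.59 in Cold (adjusted p = 0.0918), where it did not pass.

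Other genes of translation and mitochondria stood higher in Warm M1 as well: 55 of 73 genes of the cytosolic ribosome, 32 of 73 of the mitochondrial ribosome and 7 of 13 tricarboxylic acid cycle enzymes were higher, and 0, 1 and 1 of them lower. Of 43 assembly factors 4 were higher and 2 lower, and none of 8 mitochondrially encoded genes passed. Of all genes, 22.5% were higher and 22.8% lower. Among genes that are not members, the median log2 difference fell with transcript length, from 0.365 up to 600 bases to −0.034 above 4000 bases. The members' medians in the same classes lay between 0.19 and 0.348. The part of length in the lists was not tested here. The members' count in Warm was 29 without Warm M1 library 3 and also without Warm M2 library 2. In Cold it was 13 without Cold M1 library 2 or 3 and 10 without Cold M2 library 3. When libraries were scaled on the genes low in progenitors, 7 members were higher and 7 lower in Warm, and 4 higher and 3 lower under bFKB1, while the median of all genes moved to −0.19 and −0.16. Relative to all genes, the members' median then stood at 0.21 in Warm and 0.19 under bFKB1, and with progenitor counts subtracted at 0.24 in Warm, 0.24 in Cold and 0.23 under bFKB1.

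Progenitors were compared with each macrophage population in Warm mice. Against M1, 33 of 81 members were higher in AP and 16 lower, where 42.7% of genes were higher and 39.3% lower, at medians of 0.25 for the members and 0.05 for all genes. Against M2, 53 were higher and 10 lower, where 42.1% were higher and 39.5% lower, at medians of 0.47 and 0.04. The split depends on scaling and on length. With library totals in place of the normalization factors, 10 were higher and 32 lower against M1 and 30 higher and 15 lower against M2, while the median of all genes moved to −0.31 and −0.21. With the length step, 14 were higher and 35 lower against M1 and 20 higher and 25 lower against M2.

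The complexes differed in this comparison. In complex I 23 of 35 genes were higher in AP than in M1 and 30 of 35 higher than in M2, whereas no gene of complex II was higher and 3 of 4 were lower in each. With library totals the counts for complex I were 6 higher and 8 lower against M1 and 17 higher and 3 lower against M2, while all 4 genes of complex II were lower in both. With the length step complex I had 9 higher and 8 lower against M1 and 14 higher and 5 lower against M2, and complex II kept 0 higher and 3 lower in each. The members named next kept their direction and passed under both settings, except Uqcrfs1 against M2. Ndufa5, an accessory subunit of complex I, was at 38.0, 36.1 and 25.6 CPM in Warm AP, against 20.2, 21.6 and 21.0 CPM in Warm M1 (1.02 ± 0.11, adjusted p = 3.05e-07) and 21.1, 18.4 and 20.3 CPM in Warm M2 (1.00, adjusted p = 4.46e-07). Ndufs4, an accessory subunit whose loss in mice is a model of mitochondrial disease, was at 64.6, 59.2 and 44.6 CPM in Warm AP, against 42.6, 41.2 and 39.2 CPM in Warm M1 (0.81, adjusted p = 1.11e-05) and 33.5, 29.1 and 30.6 CPM in Warm M2 (1.11, adjusted p = 4.06e-07). For both, even the third Warm AP library, the lowest of its group, lies above all macrophage libraries.

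Cox5a was lower in AP, at 47.8, 43.6 and 33.1 CPM in Warm AP, against 123.3, 114.1 and 121.5 CPM in Warm M1 (−1.17 ± 0.11, adjusted p = 1.19e-07) and 94.3, 97.4 and 104 CPM in Warm M2 (−0.99 ± 0.11, adjusted p = 7.97e-07). Sdha was at 201, 200 and 187 CPM in Warm AP, against 306, 295 and 305 CPM in Warm M1 (−0.27, adjusted p = 0.00252) and 286, 294 and 283 CPM in Warm M2 (−0.29, adjusted p = 0.00114). Uqcrfs1 was at 58.5, 56.8 and 47.5 CPM in Warm AP, lower than in Warm M1 (−0.63, adjusted p = 2.26e-05); against Warm M2 the difference of 0.03 did not pass. Atp5a1 was lower in AP than in M1 (−0.50) and M2 (−0.28). Library by library, Cox5a, Sdha and Atp5a1 in AP lie below all macrophage libraries of Warm mice.

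Of all members, the tissue forms Cox6a2, Cox7a1 and Cox8b of complex IV, all at low counts, separated AP from both macrophage populations most. The tissue forms Cox6b2 and Cox4i2 did not pass against Warm M1 (0.36, adjusted p = 0.171, and 0.60, adjusted p = 0.35). Both passed against Warm M2 (1.64 and 1.57). Cox6a2 had 0 counts in all 6 AP libraries. Over the Warm AP libraries together, 3 counts would be 0.0321 CPM, so its level was at least 58.1-fold lower in Warm AP than the mean of 1.87 CPM in Warm M2, and at least 20.4-fold lower than the mean of 0.654 CPM in Warm M1. Cox7a1 was also lower in Warm AP than in Warm M2 (log2 difference −2.67 ± 0.24, adjusted p = 5.75e-08) and Warm M1 (−1.90 ± 0.25, adjusted p = 3.33e-06). Cox8b was at 0.963, 0.606 and 0.462 CPM in Warm AP and at no more than 0.113 CPM in any Warm macrophage library. Cox4i2 was at 1.71 CPM in Warm M1 library 2 and at most 0.24 CPM in the other Warm M1 libraries. That library also held the most RNA of endothelial markers, 364.0 CPM against 123.4 and 103.3 CPM, and their part in its Cox4i2 was not tested.

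**Figure D5:**
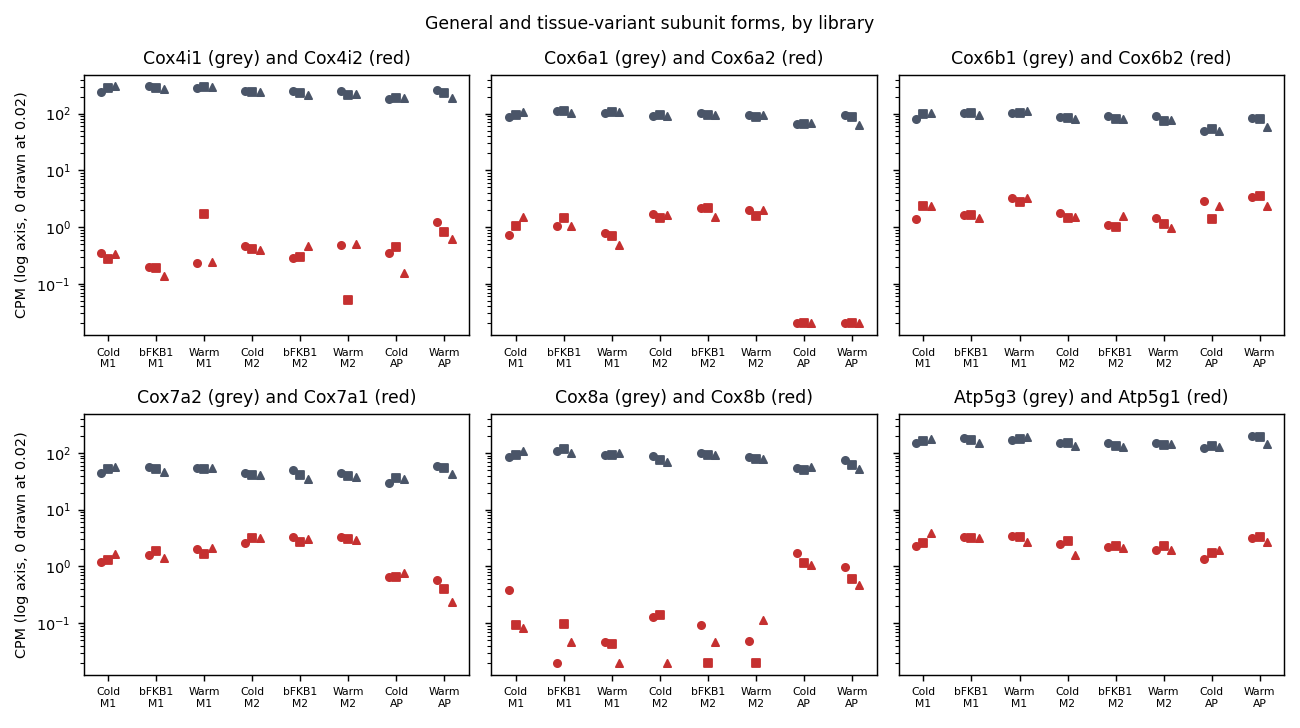
Level in CPM (log axis, 0 drawn at 0.02) of 5 general subunits of complex IV and of Atp5g3 (grey), each with the variant form of the same subunit (red), by group; circles, squares and triangles are libraries 1, 2 and 3. The general forms lie far above their variants in every group, Cox6a2 is at 0 in all AP libraries, and Cox8b is higher in each AP library than in any macrophage library.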

How the data were processed

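Whole-number counts per gene were deposited as 2 tables, 1 for the Warm and Cold libraries and 1 for bFKB1. The submitters' processing notes name CASAVA 1.8, GSNAP, SAMtools and the mouse build GRCm38; the counting program is not given in the sources used here. Rows named by dates, 27 in each table and 0.148 to 0.192% of counts, were left out. Levels are given in CPM, counts divided by the total of the library and scaled to one common total. Genes with low counts were filtered with edgeR's filterByExpr, libraries scaled by TMM, and groups compared with edgeR's quasi-likelihood test (edgeR 4.0.16, limma 3.58.1, R 4.3.3), p-values adjusted over all genes by Benjamini-Hochberg; "called" and "passed" mean an adjusted p under 0.05. Cold and Warm macrophages, bFKB1 and Warm macrophages, Cold and Warm AP, and Cold and Warm macrophages with AP were each fitted together. Cox7b2 and Cox8c passed no filter, Cox8b none with macrophages alone and Cox6a2 none with AP alone. The labels do not say that libraries of a group came from separate experiments, so p-values measure the spread between these libraries. The genes and lists were chosen with earlier results of these data known.

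Named members were, for each comparison, the 4 called with the largest change each way at a mean of 5 CPM or more and with no overlap of libraries (for differences between effects, the 3 called with the largest difference each way, at any level), a fixed set of catalytic and large subunits, and the tissue forms; 1 named member is counted but not reported here. Alternatives were DESeq2 1.42.0, library totals, no filter, scaling on genes low in progenitors, subtraction of expected progenitor counts, a replicate block, each library left out, and, added after seeing the data, removal of each library's trend of log counts on transcript length. Steps were tested on simulated data. The reported tests used no pairing. For equal replicate numbers, deviations from group means correlated at 0.143, 0.257 and 0.177 between Warm M1 and Warm M2. They correlated at 0.359, 0.072 and 0.311 between bFKB1 M1 and bFKB1 M2, and at −0.311, −0.035 and −0.081 between Cold M1 and Cold M2. For unequal numbers the values between M1 and M2 ran from −0.209 to 0.057 in Warm, below all those for equal numbers. They ran from −0.334 to 0.096 under bFKB1 and from −0.248 to 0.306 in Cold. Libraries of different treatments reached 0.701 (bFKB1 M1 library 1 with Warm M1 library 2), so these values alone do not establish a pairing. A block on the numbers changed no count of Warm M1 against Warm M2 by over 1.5 times. All 83 members matched the gene annotation, and 69 a promoter, read for 250 bases before to 50 after the start.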

Additional observations from a re-analysis of the deposited data

Results flagged for a closer look

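The cold effect on these genes differed between AP and M2 by the interaction term of edgeR's quasi-likelihood test: 35 members had a lower log2 change in AP. With the length trend removed 4 members were called: Cox6a1 (0.24), Cox8a (0.39) and Cox7a1 (1.39) higher and only Atp5g1 (−1.25) lower in AP. Without Warm AP library 3 the count was 58. The test also passed for the 3 members with the largest difference among those called, of any level. Ndufs5, an accessory subunit of complex I, differed by −1.25 (adjusted p = 0.0114), with −0.79 in AP and 0.47 in M2; its counts are uncertain because 31.1% of its 50-base stretches are shared. Atp5g1, a form of the c subunit of ATP synthase, differed by −0.98 (adjusted p = 0.0392), at 1.33, 1.73 and 1.97 CPM in Cold AP and 3.13, 3.30 and 2.69 CPM in Warm AP. Uqcrb differed by −0.86 (adjusted p = 0.0128). With the length trend removed Ndufs5 (−0.78, adjusted p = 0.0858) and Uqcrb (−0.33, adjusted p = 0.144) did not pass.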

How the results depend on the processing

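Counts of members called that moved by over 1.5 times were as follows. For Cold against Warm in M1 (16) there were 9 with library totals, 61 scaled on progenitor-low genes, 3 with progenitor counts subtracted and 9 with a replicate block, where libraries share only a number; leaving out each library gave 0 to 24. For Cold against Warm in AP (49) there were 11 with the length trend removed and 1 to 67 with a library left out. For bFKB1 against Warm there were in M1 (8) 5 scaled on progenitor-low genes, 4 with a replicate block and 2 to 7 with a library left out, and in M2 (1) 2 with the length trend removed, 0 scaled on progenitor-low genes, 0 with a block and 0 to 1 with a library left out. The labels number the bFKB1 libraries in 2 ways; the titles' numbers were used, and a replicate block on the other numbers, tried after seeing the data, gave 8 in M1, 1 in M2 and, for M1 against M2 under bFKB1, 27, against 40 with the titles' numbers. For M1 against M2 there were 14 in Warm (44) and 7 under bFKB1 (34) when scaled on progenitor-low genes, 42 in Cold (22) with progenitor counts subtracted, and 29 to 50, 25 to 40 and 10 to 31 in Warm, bFKB1 and Cold with a library left out. The cold effect in M2 minus M1 (0) gave 1 with DESeq2 and 0 to 1 with a library left out, and in AP minus M2 (35) 4 with the length trend removed and 14 to 58 with a library left out. The counts for AP against M1 (49) and M2 (63) ran from 42 to 58 and from 58 to 66 with a library left out; for M2 they were 45 with library totals and 45 with the length trend removed. For M1 against M2 in Warm the replicate block gave 39.

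Directions that reversed did so as follows. For Cold against Warm in M1 scaled on progenitor-low genes, the members' median log2 change was 0.34, with Atp5a1 at 0.28, Atp5b at 0.26, Atp5e at 0.13, Cox4i1 at 0.36, Cox5a at 0.17, Cox7b at 0.14, Ndufs1 at 0.47, Ndufs8 at 0.15, Ndufv1 at 0.45, Sdha at 0.36, Sdhb at 0.31, Uqcrc1 at 0.22 and Uqcrfs1 at 0.21. Under the same scaling, M1 against M2 in Warm gave −0.006 for Atp5a1, and the cold effect in M2 minus M1 a median of −0.20. With progenitor counts subtracted, Cox5a was 0.16 for M1 against M2 in Cold. With library totals, AP against M1 gave a median of −0.11, Ndufs1 at −0.27 and Ndufv1 at −0.018, and AP against M2 gave Ndufs1 at −0.11. With the length trend removed, Cox4i1 was 0.14 for Cold against Warm in AP and −0.29 for AP against M2, Uqcrfs1 was −0.37 for AP against M2, and the medians for AP against M1 and M2 were −0.12 and −0.039. Over every value and setting recomputed, 5119 kept their direction and side of the threshold or stayed in range, 216 no longer passed and 48 newly passed with the same direction, and 534 moved by more than the limit. The cause of these shifts was not tested. Subtraction of progenitor counts was not run for bFKB1 in M2. With 3 libraries a group and counts under 5 CPM for the tissue forms, small changes in them were not detectable.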
